A study of Mus musculus with 7 samples.

Results

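The INK4A-ARF and p53 pathway genes described here are 9 mouse genes, chosen by symbol from the 27179 genes of a ChIP-seq read-count table. They are Cdc6, Ezh2, E2f2 and Melk, the neighbouring genes Cdkn2a and Cdkn2b, and Cdkn1a, Trp53 and Mdm2. The counts come from anti-V5 chromatin immunoprecipitation of pharyngeal arches 1 and 2, dissected from C57BL/6 embryos at E10.5, the tissue from which the jaws and middle ear form. The tagged embryos (V5, 3 ChIP libraries) were homozygous for a Kat6a allele that ends in a Flag-V5-BIO tag and encodes tagged MOZ, also called KAT6A, a histone acetyltransferase. Mice with both copies tagged are viable and fertile, per the series' design text. Wild-type embryos (WT, 3 ChIP libraries) carried no V5 tag, and the same antibody was used on their arches to measure the background. The single input library is chromatin of tagged arches without antibody. The members were proposed with the V5 and WT values of these libraries already known, Trp53 and Cdc6 among them, so their differences between V5 and WT are given as a description, without a test.

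MOZ is known from mouse fibroblasts as an activator of Cdc6, Ezh2, E2f2 and Melk and as a brake on cellular senescence that acts through the Cdkn2a locus. Cdkn2a encodes a pair of unrelated proteins from separate promoters: INK4A inhibits the cyclin D kinases and so keeps RB active, and ARF binds MDM2 and so protects p53 from degradation. Stabilised p53 then raises Cdkn1a, whose product p21 blocks the cell cycle, and raises its own antagonist Mdm2.

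The counts cover the gene from end to end, so they give no position within it, and the promoters are shown to place the members and not as sites of binding. RefSeq gives 12 promoter windows for the 9 genes, each from 250 bases before to 50 after a transcription start in assembly GRCm38.p6 (mm10). The windows of Trp53 and Mdm2 are shown because their V5 libraries lay wholly above (Trp53) or wholly below (Mdm2) the WT libraries, that of Cdc6 because it had the highest level per kb in any single library, and both windows of Cdkn2a because one gene count stands for both of its products. Capitals mark matches on either strand to the E2F motif TTTNNCGC, the CCAAT box (CCAAT), the CHR motif (TTTGAA or TTCGAA) or the p53 half-site, and no such matches overlapped within these windows. The p53 half-site reads alike on both strands and was counted once per position.
Trp53, chr11:69580109-69580408, plus strand: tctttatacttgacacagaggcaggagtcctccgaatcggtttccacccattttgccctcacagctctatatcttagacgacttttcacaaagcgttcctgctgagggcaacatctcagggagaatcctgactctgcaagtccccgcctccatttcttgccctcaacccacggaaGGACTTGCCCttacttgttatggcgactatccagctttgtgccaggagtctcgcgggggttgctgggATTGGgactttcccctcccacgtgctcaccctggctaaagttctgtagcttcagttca
Mdm2, chr10:117710709-117711008, minus strand: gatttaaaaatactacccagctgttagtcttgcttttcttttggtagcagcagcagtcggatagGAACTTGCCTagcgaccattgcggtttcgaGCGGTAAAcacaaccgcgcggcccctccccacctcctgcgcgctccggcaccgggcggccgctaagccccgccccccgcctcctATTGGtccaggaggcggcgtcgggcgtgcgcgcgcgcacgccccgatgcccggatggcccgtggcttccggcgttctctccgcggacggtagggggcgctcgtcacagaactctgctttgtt
Cdc6, chr11:98907901-98908200, plus strand: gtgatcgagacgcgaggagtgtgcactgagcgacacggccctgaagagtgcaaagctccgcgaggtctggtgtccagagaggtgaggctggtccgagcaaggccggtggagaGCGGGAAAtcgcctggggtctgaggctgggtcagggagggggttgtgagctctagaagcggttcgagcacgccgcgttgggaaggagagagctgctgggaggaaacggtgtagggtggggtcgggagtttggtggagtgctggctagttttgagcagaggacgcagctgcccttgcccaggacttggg
Cdkn2a, upstream window (the ARF start), chr4:89294570-89294869, minus strand: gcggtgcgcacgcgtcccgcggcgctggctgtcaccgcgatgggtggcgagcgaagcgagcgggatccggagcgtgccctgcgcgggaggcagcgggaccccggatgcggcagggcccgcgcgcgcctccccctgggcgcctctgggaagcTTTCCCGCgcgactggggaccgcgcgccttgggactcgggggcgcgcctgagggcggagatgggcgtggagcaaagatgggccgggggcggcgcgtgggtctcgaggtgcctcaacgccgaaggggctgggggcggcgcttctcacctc
Cdkn2a, downstream window (the INK4A start), chr4:89282143-89282442, minus strand: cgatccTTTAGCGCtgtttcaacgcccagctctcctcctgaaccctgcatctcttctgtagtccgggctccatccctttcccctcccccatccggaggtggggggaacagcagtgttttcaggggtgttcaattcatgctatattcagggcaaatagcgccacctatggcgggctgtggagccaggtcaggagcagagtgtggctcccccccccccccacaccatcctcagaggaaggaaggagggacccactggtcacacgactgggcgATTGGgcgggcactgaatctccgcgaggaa

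The E2F motif was found in 6 of the 12 windows, those of Cdc6, Ezh2, E2f2 (its upstream start), Mdm2 and both starts of Cdkn2a, and in 5.17% of all 32851 windows. The p53 half-site was found in the windows of Cdkn1a, Trp53 and Mdm2, 3 of 12, and in 8.36% of all windows. The CCAAT box was in 6 of the 12 windows and in 37.4% of all, and the CHR motif in 2 of 12 and in 19.2% of all. The window of Melk held none of these motifs. The upstream window of Cdkn2a had 77.0% G and C and 45 CpG, more CpG than 98.1% of all windows. The upstream window of Cdkn1a had 2 CpG and the downstream window of E2f2 had 7. The other member windows had 10 (Trp53) to 35 (Mdm2), with a median of 7 over all windows. The E2F motif itself holds a CG, and its share was not compared among windows of like CpG count. The Trp53 window is shared ground: its first 142 bases lie in Wrap53, and 97 bases separate the 2 genes in the annotation. Wrap53 is read the other way, so the side that faces Trp53 is its start side.

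The V5 libraries held 806648 to 3286602 counts, the WT libraries 1288732 to 2504595, and the input 3488745. Values below are raw counts and CPM, counts per 1e6 counts of the library, and intervals around single values are exact 95% Poisson intervals that cover counting error only. Across the whole table no gene passed the test of V5 against WT. Of 14575 genes with enough reads, 0 (0%) were higher and 0 lower by the quasi-likelihood test of edgeR at a threshold of 0.05 (smallest adjusted p = 0.978). DESeq2 also called 0. With edgeR 611 of the 14575 had an unadjusted p under 0.05, a smaller share than the 0.05 that a test of unchanged genes gives. Reads over whole genes measure neither expression nor cell type, so the tissue label could not be checked against marker genes, and the tag at the end of Kat6a leaves no mark in its count. Nothing in the labels says whether replicates came from separate litters.

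Of the 9 members, 6 had more reads in V5 and 3 fewer, and in 52.5% of all tested genes the log2 fold change was positive. The median log2 fold change over the 9 was 0.52, with the log2 ratio of mean CPM used for Cdkn2b. Over all tested genes the median was 0.03. The members were proposed with their values known, so these medians are a description only. Only Trp53 had every V5 library above every WT library (4.83% of tested genes did), only Mdm2 had every V5 library below (5.27% did), and in the other 7 members the groups overlapped. Cdkn2b had too few reads for the fit. That fit asked for 7.64 CPM or more in any 3 ChIP libraries. Trp53 reached this level in all 3 V5 libraries and 1 WT library, and Cdc6 in all 3 V5 libraries and 2 WT libraries. Cdkn1a reached it in 2 V5 libraries and 1 WT library, just enough to pass, and Mdm2 in 2 V5 and all 3 WT libraries. The other tested members reached it in every ChIP library.

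**Figure D1:**
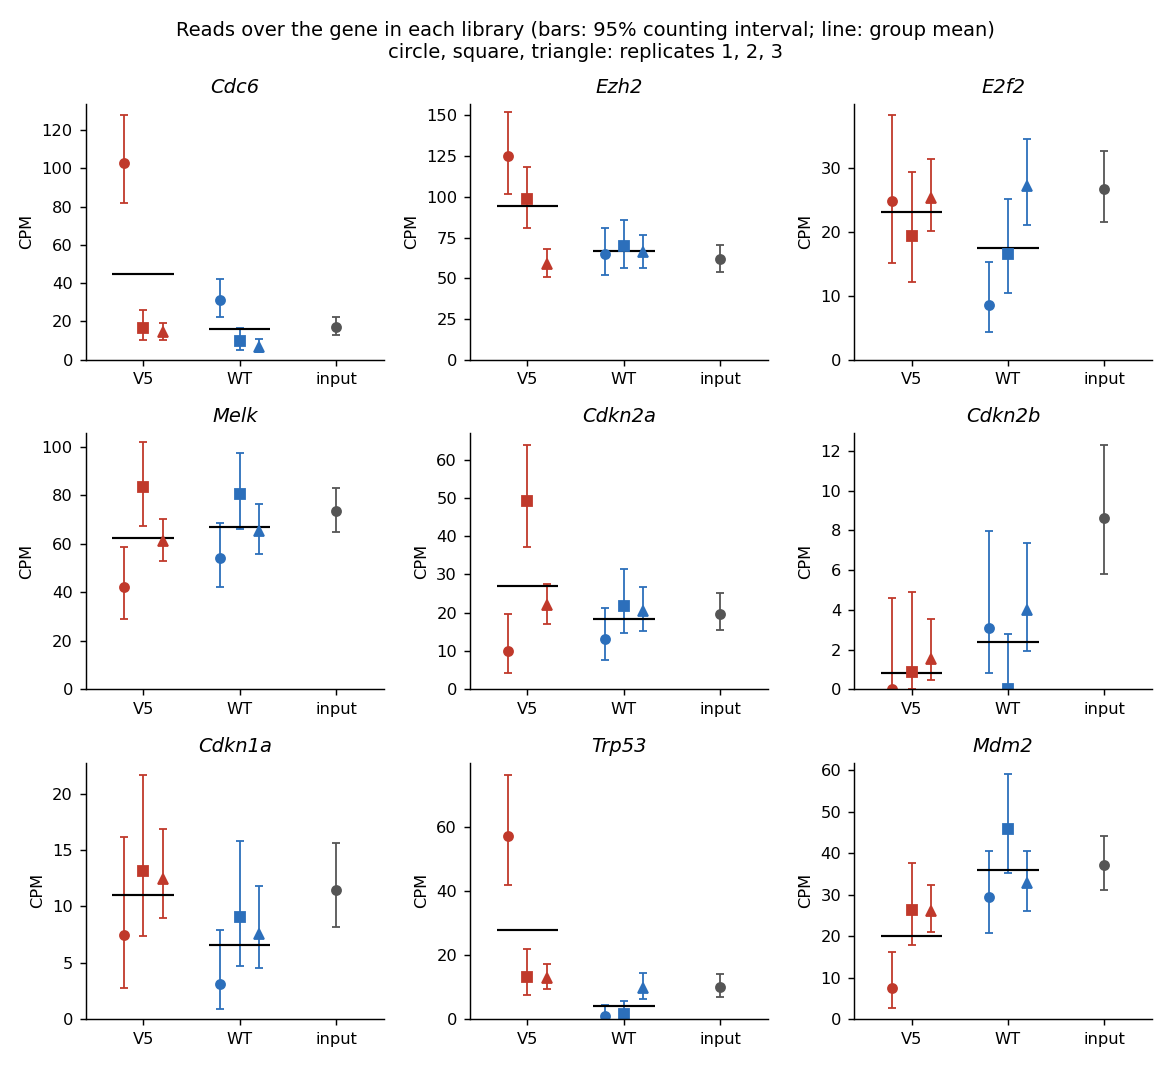
Reads over each of the 9 genes as CPM (vertical axis, each panel with its own scale from 0) in the 3 V5, 3 WT and 1 input libraries. Points are libraries with their 95% Poisson interval and lines are group means. V5 replicate 1 stands far above the other libraries in Cdc6 and Trp53, and far below them in Mdm2.

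Among the genes through which MOZ is known to hold back senescence, Cdc6 had the widest spread. Cdc6 loads the replicative helicase onto origins (GeneID 23834, chromosome 11, 98907709 to 98923942). It had 83, 19 and 47 counts in V5 replicates 1 to 3, against 40, 13 and 17 in the WT libraries and 60 in the input. As CPM these were 103, 16.7 and 14.3 in V5, against 31.0, 9.79 and 6.79 in WT and 17.2 in the input. One library of either group was high, and V5 replicates 2 and 3 lay between the WT values, so the groups overlapped. The mean was 44.6 ± 50.5 CPM in V5 and 15.9 ± 13.2 CPM in WT (SD, n = 3 each), and the log2 fold change was 1.55 (SE 0.74). Without V5 replicate 1 it was -0.04, and without WT replicate 1 it was 2.48, so these single libraries set both size and direction.

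Ezh2 encodes the catalytic subunit of Polycomb repressive complex PRC2, which methylates histone H3 and silences Cdkn2a in dividing cells (GeneID 14056, chromosome 6, 47530274 to 47595270). It had 125, 98.4 and 59.0 CPM in V5, against 65.2, 70.1 and 65.9 CPM in WT and 61.6 in the input, from 101, 112 and 194 counts in V5 and 84, 93 and 165 in WT. V5 replicates 1 and 2 lay above every WT library and V5 replicate 3 below every one. The WT libraries differed by less than counting error gives, with a chi-square per degree of freedom of 0.147, while the V5 libraries had 22.2. The medians over tested genes were 6.07 in V5 and 3.43 in WT. The log2 fold change was 0.52 (SE 0.32), and it was 0.20 without V5 replicate 1.

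E2f2, an activating transcription factor of S-phase genes (GeneID 242705, chromosome 4, 136172274 to 136196057), had 24.8, 19.3 and 25.3 CPM in V5, against 8.54, 16.6 and 27.2 CPM in WT and 26.7 in the input. Here the V5 libraries were close to one another, and WT replicate 3 was the highest of the ChIP libraries. The log2 fold change of 0.42 (SE 0.58) became 0.10 without WT replicate 1 and 0.90 without WT replicate 3. Melk, a kinase of dividing and progenitor cells (GeneID 17279, chromosome 4, 44300909 to 44364675), had 42.1, 83.4 and 61.2 CPM in V5, against 54.3, 80.6 and 65.5 CPM in WT and 73.7 in the input. Its groups lay on top of each other, with a log2 fold change of -0.07 (SE 0.33) that was 0.09 without V5 replicate 1 and 0.07 without WT replicate 2. Of these 4 genes, Cdc6, Ezh2 and E2f2 thus had higher V5 means and Melk a lower one, each with overlapping libraries.

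The Cdkn2 locus lies on chromosome 4, with 11669 bases between Cdkn2a (GeneID 12578, 89274473 to 89294619) and Cdkn2b (GeneID 12579, 89306289 to 89311032). Cdkn2a had 8, 56 and 72 counts in V5, against 17, 29 and 51 in WT and 69 in the input, which is 9.92, 49.2 and 21.9 CPM in V5, against 13.2, 21.8 and 20.4 CPM in WT and 19.8 in the input. The V5 libraries held both the lowest and the highest value of the ChIP libraries. The log2 fold change was 0.57 (SE 0.58), and without V5 replicate 2 it was -0.15. The count does not separate the INK4A start from the ARF start shown above.

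Cdkn2b encodes INK4B, a relative of INK4A that also inhibits the cyclin D kinases. It had 0, 1 and 5 counts in V5, against 4, 0 and 10 in WT and 30 in the input. In CPM this is 0, 0.878 and 1.52 in V5, against 3.10, 0 and 3.99 in WT and 8.60 (5.80 to 12.3) in the input. A count of 0 allows up to 3.72 CPM in V5 replicate 1 and 2.26 CPM in WT replicate 2 when the limit is set at 3 counts, and the two-sided Poisson intervals drawn in the plot of CPM by library reach 4.57 and 2.78 CPM in the same libraries. All 6 ChIP libraries lay below the input and below the lower end of its interval, although the intervals of WT replicates 1 and 3 reached up to 7.95 and 7.34 CPM. Cdkn2b was the 1 member of 9 with all 6 ChIP libraries below the input, against 14.9% of the tested genes. Among the 9872 genes with any ChIP reads that, like Cdkn2b, did not pass the filter, the share was 12.1%. With the V5 and WT values overlapping, the log2 ratio of mean CPM was -1.16 in V5 over WT at a prior count of 0.5. The neighbours of the pair lay closer to the input on average. Mtap, a methionine salvage enzyme to the left (89137370 to 89181090), had 26.0, 36.0 and 39.3 CPM in V5, against 14.7, 31.6 and 29.9 CPM in WT and 39.8 in the input. All 6 of these values were below the input too, the nearest by little. Dmrta1, a transcription factor gene to the right (89688198 to 89694766), had 9.92, 8.78 and 5.78 CPM in V5, against 9.31, 3.01 and 8.38 CPM in WT and 8.60 in the input.

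Cdkn1a, the p21 gene (GeneID 12575, chromosome 17, 29090979 to 29100722), had 6, 15 and 41 counts in V5, against 4, 12 and 19 in WT and 40 in the input. As CPM these were 7.44, 13.2 and 12.5 in V5, against 3.10, 9.04 and 7.59 in WT and 11.5 in the input. V5 replicates 2 and 3 lay above every WT library and V5 replicate 1 among them. The mean was 11.0 ± 3.13 CPM in V5 and 6.58 ± 3.09 CPM in WT (SD, n = 3 each), a log2 fold change of 0.77 (SE 0.78), and it stayed positive with any one library left out (0.44 to 1.03).

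Trp53, the p53 gene (GeneID 22059, chromosome 11, 69580348 to 69591873), had the largest difference of the members. It had 46, 15 and 42 counts in V5, against 1, 2 and 24 in WT and 35 in the input. As CPM these were 57.0, 13.2 and 12.8 in V5, against 0.776, 1.51 and 9.58 in WT and 10.03 in the input. V5 replicate 1 stood well above the other V5 libraries and WT replicate 3 well above the other WT libraries. V5 replicate 3 and WT replicate 3 were close, with intervals of 9.21 to 17.3 and 6.14 to 14.3 CPM that overlap. The interval of WT replicate 1 (0.0196 to 4.32 CPM) lay wholly below that of WT replicate 3, so the WT libraries differed among themselves by more than counting error. The log2 fold change was 2.69 (SE 0.85), higher than in all but 0.0412% of tested genes. Trp53 was proposed with these values known and passed the filter through its V5 libraries, so this rank is a description only. The log2 fold change was 1.57 without V5 replicate 1 and 4.53 without WT replicate 3. A pseudogene copy of Trp53 is annotated on chromosome 17, so reads that match both places are uncertain.

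Trp53 was set beside the genes at its ends. Wrap53 (69561754 to 69580250), which encodes a telomerase RNA chaperone and shares the start region printed above, had 2, 6 and 25 counts in V5, against 9, 15 and 35 in WT and 60 in the input. That is 2.48, 5.27 and 7.61 CPM in V5, against 6.98, 11.3 and 14.0 CPM in WT and 17.2 in the input, and the means were 5.12 ± 2.57 CPM in V5 and 10.8 ± 3.53 CPM in WT (SD, n = 3 each). Its V5 mean was thus lower than its WT mean, opposite to Trp53, although V5 replicate 3 lay above WT replicate 1. Atp1b2, a sodium pump subunit gene on the other side (69599728 to 69605978), had 13.6, 2.64 and 1.52 CPM in V5, against 4.66, 0 and 7.19 CPM in WT and 4.87 in the input, and its groups overlapped. Both neighbours had too few reads for the fit.

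Mdm2, the ubiquitin ligase that degrades p53 (GeneID 17246, chromosome 10, 117688875 to 117710758), was the one member with every V5 library below every WT library. It had 6, 30 and 86 counts in V5, against 38, 61 and 82 in WT and 130 in the input. As CPM these were 7.44, 26.4 and 26.2 in V5, against 29.5, 46.0 and 32.7 in WT and 37.3 in the input. V5 replicates 2 and 3 were close to WT replicate 1, and their intervals overlapped with it. The mean was 20.0 ± 10.9 CPM in V5 and 36.1 ± 8.72 CPM in WT (SD, n = 3 each), a log2 fold change of -0.80 (SE 0.51). With any one library left out it was -1.02 to -0.47, and it was -0.47 without V5 replicate 1. As the groups do not overlap, leaving out 1 library could hardly change this sign. Trp53 and Mdm2 were the least alike pair of the 8 tested members, which were proposed with these values known. The root mean square difference between their profiles, each centred on its own mean, was 1.96 log2 units over the 7 libraries. The median over tested genes was 1.46 from Trp53 and 0.79 from Mdm2. The most alike pair, E2f2 and Cdkn1a, differed by 0.37.

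**Figure D2:**
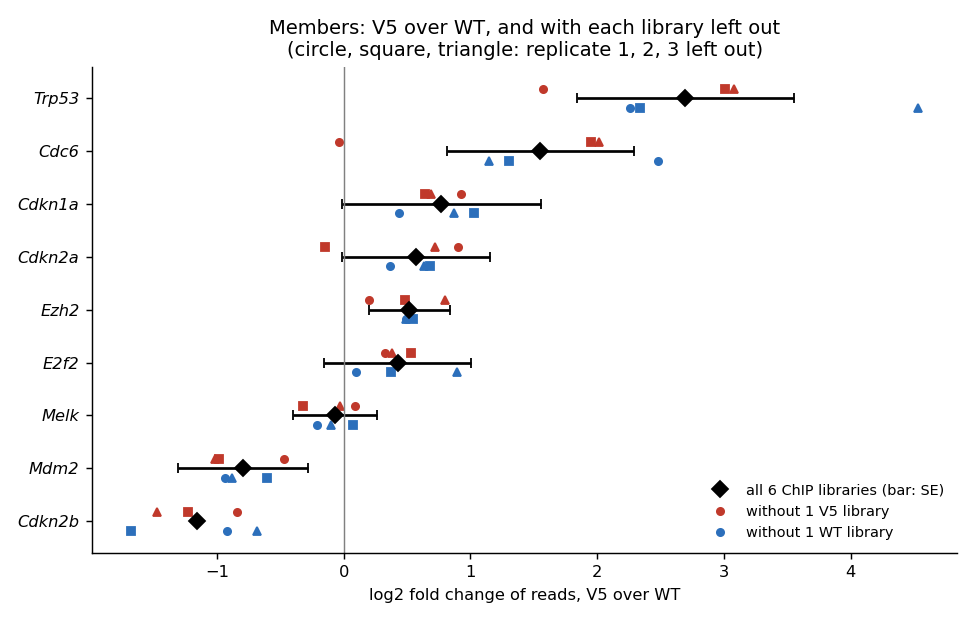
Log2 fold change of reads in V5 over WT (horizontal axis) for the 9 members. Diamonds use all 6 ChIP libraries, with bars of 1 SE where a fit could be made, and coloured symbols leave out 1 library each. Cdc6, Melk and Cdkn2a change sign when some single library is left out, and the other members keep theirs. Cdc6 falls to -0.04 without V5 replicate 1. In Trp53 and Mdm2 the groups do not overlap, so leaving out 1 library could hardly change the sign.

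Set against the input, the V5 mean was above the input in 4 members (Cdc6, Ezh2, Cdkn2a and Trp53) and below it in 5, and 47.1% of tested genes had a V5 mean below the input. The WT mean was above the input in Ezh2 and below it in the other 8 members, against 48.1% of tested genes. Both ratios share the input library, which is single, so no test was made. Trp53 stood at a log2 ratio of 1.46 in V5 over input and at -1.25 in WT over input, so that its V5 mean was above and its WT mean below the input. Cdc6 stood at 1.38 and -0.10 in the same order, and Mdm2 at -0.88 and -0.04. In Cdc6 the V5 mean was carried by replicate 1, since replicates 2 and 3 lay below the input. In Trp53 all 3 V5 libraries lay above the input and all 3 WT libraries below. Of these, V5 replicates 2 and 3 and WT replicate 3 lay inside the input's interval of 6.99 to 14.0 CPM. The share of tested genes with this pattern was not counted, so whether it is unusual is not known. Trp53 was proposed with its values known, and the pattern is a description only. In Mdm2 all 3 V5 libraries and 2 of 3 WT libraries lay below.

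**Figure D3:**
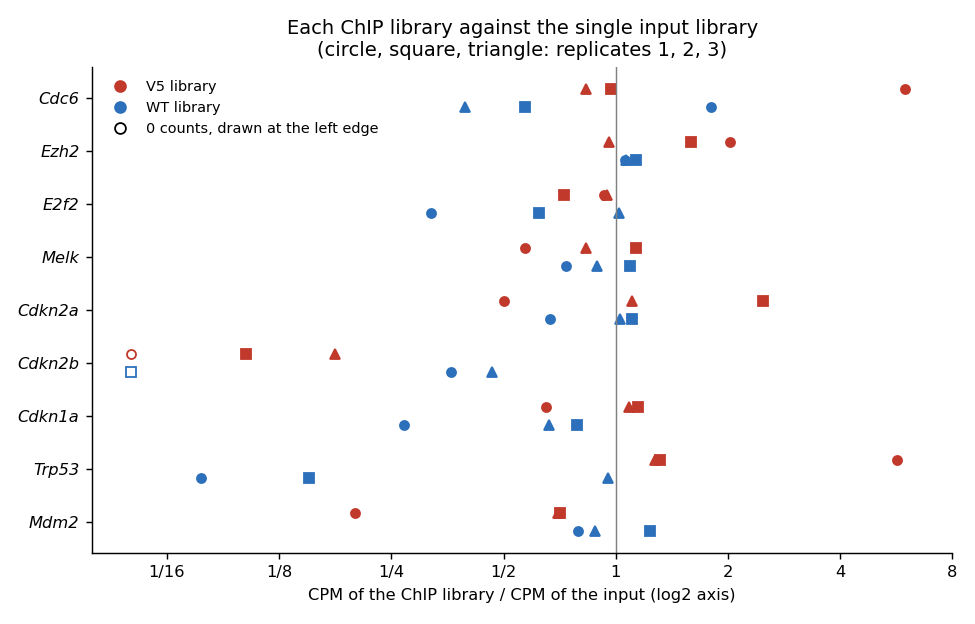
CPM of each ChIP library divided by the CPM of the single input library (horizontal axis, log2 scale) for the 9 members. V5 libraries are drawn above WT libraries and open symbols mark 0 counts. All 6 libraries lie left of 1 in Cdkn2b. In Trp53 V5 libraries lie right and WT libraries left of 1, WT replicate 3 by little (0.955).

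Levels between genes were compared per kb of deposited length, which was 98.9% to 100% of the annotated span for each member. Over all tested genes the median was 0.935 CPM per kb in V5, 0.939 in WT and 0.911 in the input. In V5 the order of mean levels was Cdc6 (2.78 ± 3.14 CPM per kb), Trp53 (2.40 ± 2.21), Ezh2 (1.45 ± 0.514), Cdkn2a (1.34 ± 0.999), Cdkn1a (1.13 ± 0.321), E2f2 (0.977 ± 0.139), Melk (0.976 ± 0.324), Mdm2 (0.916 ± 0.498) and Cdkn2b (0.169 ± 0.161; SD, n = 3 each). From Cdc6 down to Mdm2, neighbours in this order lay no further apart than the larger of their SDs, and Mdm2 and Cdkn2b lay further apart. In WT the highest mean level was that of Mdm2 (1.65 ± 0.400 CPM per kb) and the lowest that of Trp53 (0.343 ± 0.424), whereas in the input Cdkn2b (1.81 CPM per kb) and Mdm2 (1.71) were highest and Trp53 was lowest (0.871).

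The spread between V5 libraries moved with gene and library. In Cdc6 and Trp53 the chi-square per degree of freedom was 92.8 and 33.8 over the V5 libraries, and 19.3 and 8.67 over the WT libraries, all above the medians of tested genes given above. V5 replicate 1, the shallowest library, held the highest ChIP value in Cdc6, Ezh2 and Trp53, the lowest in Melk, Cdkn2a and Mdm2, and 0 counts in Cdkn2b, where WT replicate 2 also had 0. The part of its depth in these values was not tested. Gene length also moved with the fold change over the table: tested genes of 3 to 10 kb, the class of Cdkn1a, had a median log2 fold change of 0.19, and those of 10 to 30 kb, the class of Cdc6, E2f2, Cdkn2a, Trp53 and Mdm2, had 0.03. The part of length in the members' values was not tested beyond these classes.

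The genes whose profile over the 7 libraries was most like that of a member were found by the root mean square difference of centred log2(CPM + 2). For Trp53 they were Ncstn (0.46) and Ripply2 (0.49), with a median of 1.46 over tested genes. Ncstn, a subunit of gamma-secretase, had 66.9, 7.91 and 10.6 CPM in V5, against 3.10, 3.01 and 13.6 CPM in WT and 11.5 in the input. For Cdc6 they were Ptpmt1 (0.29) and Mitd1 (0.39), with a median of 1.22. Ptpmt1, a mitochondrial phosphatase, had 40.9, 8.78 and 9.13 CPM in V5, against 14.7, 6.78 and 4.39 CPM in WT and 9.46 in the input. For Mdm2 they were 2610020C07Rik (0.13) and Rbm14 (0.14), with a median of 0.79. The nearest for the other tested members were Rras2 and Igdcc4 for Ezh2, 4930584F24Rik for E2f2, Rgs13 and Rufy2 for Melk, Ccpg1 and Ppig for Cdkn2a, and Mtap and Cnot3 for Cdkn1a, at 0.05 to 0.15. The nearest genes to Cdkn1a thus included Mtap, the left neighbour of the Cdkn2 pair on another chromosome.

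The other genes of these pathways were taken from 5 lists with 121 genes, of which 90 had enough reads. None was called in either direction (smallest adjusted p over these genes with edgeR = 0.978), as for the table as a whole, and 55 of the 90 had a positive log2 fold change (61.1%, against 52.5% of all tested genes). Without V5 replicate 1 these shares were 49.5% of the listed genes and 49.0% of all tested genes. Every V5 library lay above every WT library in 5 of the 90 and below in 4, near the 4.83% and 5.27% of all tested genes, so the separated genes named below are examples of a share that the whole table has. Regulators of p53, such as its kinases and acetyltransferases, were positive in 11 of 19 tested genes, around a median log2 fold change of 0.05. This list had no steady direction: without WT replicate 1 the count was 6 of 19, and the median was negative (-0.12 to -0.02) with any one library left out. By smallest p they were led by Brca1, a DNA repair gene, at -0.45 (SE 0.32), Chek2, a checkpoint kinase gene, at -0.44 (SE 0.53), and Ep300, an acetyltransferase gene, at -0.20 (SE 0.27).

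Known target genes of p53 had 12 of 19 tested members positive, with a median of 0.21. The median was 0.09 without V5 replicate 2 (12 of 21 positive) and 0.44 without WT replicate 3 (15 of 22 positive). Gtse1, whose product restrains p53 in late cell cycle, had 45, 45 and 43 counts in V5, against 6, 29 and 25 in WT and 45 in the input, a log2 fold change of 1.60 (SE 0.65). These raw counts come from libraries of unequal depth, and in CPM the V5 and WT groups of Gtse1 overlapped. Its mean was 36.1 ± 21.6 CPM in V5 and 12.2 ± 8.80 CPM in WT (SD, n = 3 each). The input had 12.9 CPM. Perp, which encodes a membrane protein of apoptosis and desmosomes, stood at 1.22 (SE 0.73), and Fas, a death receptor gene, at -0.61 (SE 0.39). Every V5 library lay above every WT library in Perp and Apaf1 and below in Fas, 2 and 1 of 19, and Cdkn1a and Mdm2, which are p53 targets too, are counted among the members.

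Genes of the RB and E2F axis, on which INK4A and p21 act, had 10 of 15 tested members positive, with a median of 0.10 that became -0.01 without V5 replicate 1. E2f5, a repressive E2F, had 6, 15 and 106 counts in V5, against 45, 63 and 88 in WT and 197 in the input, a log2 fold change of -1.06 (SE 0.52), with every V5 library below every WT library in CPM. Rbl2, an RB relative, stood at 0.46 (SE 0.32) and Cdk6, a target of INK4A, at 0.30 (SE 0.23). E2f3 had every V5 library above every WT library at a log2 fold change of 0.17 (SE 0.29).

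Regulators of the INK4A-ARF locus, most of them Polycomb proteins and their partners, were positive in 16 of 22 tested genes, around a median of 0.26 that was 0.06 without V5 replicate 2. Zbtb7a, a repressor of ARF, had 29, 34 and 70 counts in V5, against 14, 18 and 18 in WT and 86 in the input, a log2 fold change of 1.502 (SE 0.59) with no overlap between the groups. Kdm2b, which recruits Polycomb to CpG islands, stood at 0.51 (SE 0.27). Partners of CDC6 in replication licensing had 6 of 15 tested genes positive and a median of -0.03, but 11 of 16 positive with a median of 0.33 without V5 replicate 2. In this list Mcm10 stood at 1.41 (SE 0.55), Gmnn, the licensing inhibitor geminin, at 1.62 (SE 0.78) and Orc5, an origin recognition subunit, at -0.61 (SE 0.35). Within the licensing list the V5 libraries lay wholly above in Mcm3 and wholly below in Orc5 and Mcm6.

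**Figure D4:**
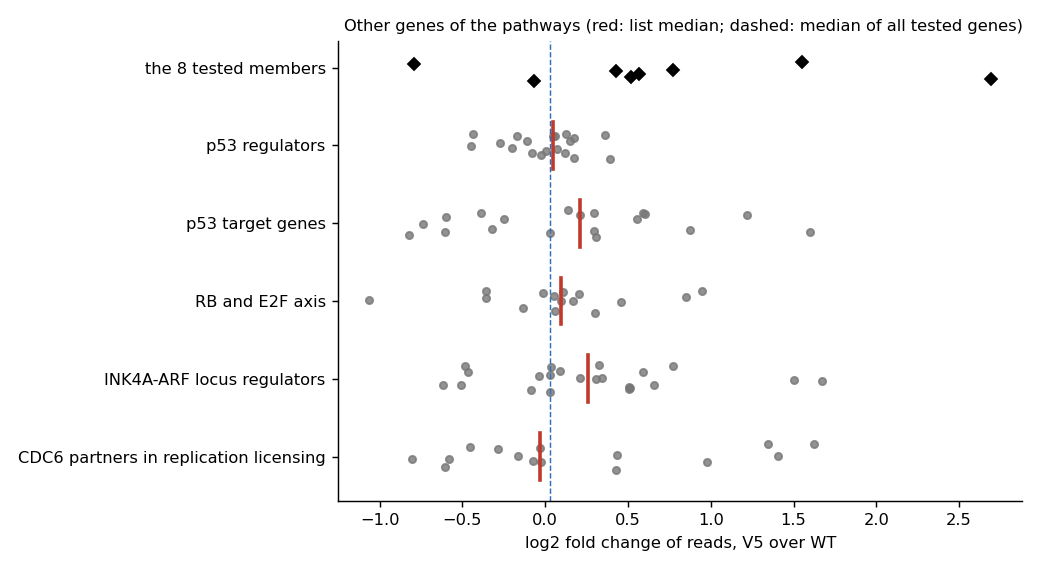
Log2 fold change of reads in V5 over WT (horizontal axis) for the 8 tested members (diamonds) and for the tested genes of the 5 pathway lists (points), with list medians in red and the median of all tested genes, 0.03, as a dashed line. Trp53 at 2.69, proposed with its values known, lies to the right of all 90 listed genes.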

How the data were processed

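Read counts per gene were deposited by the authors for 7 libraries with an Entrez identifier and gene length, per the file headers. Of tools, bcl2fastq, featureCounts and MACS are named in the submitters' processing notes, with the mouse build mm10; which aligner was used, and how duplicates, strands and overlaps were treated, is not given in the sources used here. Duplicate reads are not independent molecules. Symbols and coordinates came from RefSeq GRCm38.p6 (25275 of 27179 identifiers matched), as did the promoter sequences.

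The fit of V5 against WT used edgeR 4.0.16 (R 4.3.3), with TMM factors, the filterByExpr filter at a minimum count of 10, and robust glmQLFit with a two-sided glmQLFTest; p-values were adjusted by Benjamini-Hochberg over all 14575 genes, at a threshold of 0.05. It was checked on simulated data. DESeq2 1.42.0 was an alternative, beside other size factors, no filter, a replicate block and leaving out each library. SEs were derived from the F statistic. Ratios to the input, and to WT for Cdkn2b, used mean CPM with a prior count of 0.5. Peaks were not analysed here.

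The members, lists and tests were chosen with earlier results of these data known. Named genes are the members, the 3 genes with the smallest p in each list, the 2 nearest profiles of each tested member and the genes beside Trp53 and the Cdkn2 pair; Apaf1, E2f3, Mcm3 and Mcm6 were added for their non-overlapping groups, after their values were seen. A few genes this rule names are not reported here. As no label says that replicates are separate animals, the p-values reflect only differences among these libraries, possibly technical ones.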

Additional observations from a re-analysis of the deposited data

How the results depend on the processing

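The directions of the 9 member log2 fold changes did not change with DESeq2, DESeq2's size factors in edgeR, no filter or the replicate block, and 6 stayed positive in each. Cdkn2b was not refitted with DESeq2's size factors or the replicate block, so its direction could not change there. With 1 library left out, 5 to 7 were positive: Cdc6 ranged from -0.04 to 2.48, Cdkn2a from -0.15 to 0.90, Melk from -0.32 to 0.09 and Trp53 from 1.57 to 4.53. Members with every V5 library above every WT library numbered 1 to 3 and those below 1 to 2 under leave-one-out, beside 8.03% to 11.3% of tested genes above and 8.66% to 16.9% below. Over all genes, edgeR called 9 genes higher in V5 without the filter, 1 with the replicate block, and 0 to 2 with 1 library left out (0 lower throughout); no member and no listed gene was called in any of these fits. The cause was not tested. Same-numbered V5 and WT libraries had correlations of deviations of 0.01 to 0.06, and not every library correlated best with its own number. Over all pairs the range was -0.05 to 0.06, too narrow to settle whether replicate numbers pair the libraries. Without the filter 22 of 30 p53 target genes and 17 of 24 RB and E2F genes were positive. The other lists had 18 of 28 (INK4A-ARF locus regulators), 11 of 21 (p53 regulators) and 8 of 18 (licensing partners). Of all genes in that fit 49.7% were positive, and the genes it adds have few reads. Against the input, only the V5 value of Cdkn1a changed sides, at a log2 ratio of 0.07 with a prior count of 2 in place of -0.02; with TMM sizes none did. Cdkn2b had at most 10 counts in a ChIP library and Trp53 had 1 and 2 in WT replicates 1 and 2, so differences between these libraries are poorly resolved at this depth.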
